A study of Mus musculus with 21 samples.

Results

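This account is of 10 mouse genes of amino acid, creatine and inositol metabolism: Pbld1, Gatm, Dao, Hpd, Hgd, Fah, Ass1, Miox, Agxt2 and Agmat. They were chosen by symbol from the 50406 autosomal genes in the files, with the levels in these libraries already known, so their differences between groups are given as a description and their p-values are not independent evidence. RNA-Seq was performed on 21 libraries of cells sorted from wildtype mice, 10 of neutrophils (PMNs, labelled as taken from blood) and 11 of renal tubular epithelial cells (TECs, from kidney tissue). The mice, aged 8 to 12 weeks, received remote ischemic preconditioning (RIPC, 3 cycles of 5 minutes of limb ischemia) or no preconditioning (control), followed by renal ischemia-reperfusion injury (IRI, a 32-minute clamp of the renal vessels) or sham surgery, and cells were collected 24 hours later. This gave 4 groups for each cell type, namely sham without RIPC (sham control), sham with RIPC, IRI without RIPC (IRI control) and IRI with RIPC. IRI control of both cell types and sham control of PMNs held 2 libraries each, and the other 5 groups held 3. The study calls the libraries biological replicates, and the labels do not tie them to single animals.

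The proximal tubule reabsorbs filtered amino acids and sugars and holds enzymes that break them down or convert them into products for the rest of the body. Tyrosine is degraded through hydroxyphenylpyruvate and homogentisate to fumarate and acetoacetate, arginine is remade from citrulline and feeds creatine synthesis, and the kidney is the chief site at which inositol is oxidised. In acute kidney injury, tubular cells are known to lose parts of this metabolic program while they express injury and repair genes.

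The libraries held 20881334 to 30507235 reads assigned to genes in PMNs and 21479605 to 51624602 in TECs. Neutrophil markers were low in TECs: the 12 markers summed to between 0.395 and 90.5 TPM (a transcript level corrected for length and library total), against 9555 to 46354 TPM in PMNs. Ly6g, a defining neutrophil surface gene, was at 0 in all 6 TEC sham libraries. The reverse did not hold. The 13 proximal tubule markers summed to 3066 to 8285 TPM in TECs after sham surgery and to 1293 to 8456 TPM in PMNs after sham surgery, so libraries labelled as neutrophils held tubular RNA. Within TECs, the tubular injury markers ranged from 415 to 3280 TPM after sham surgery, and sham control 1, the lowest sham library for Gatm, Agxt2, Dao and Hgd, was the one with 15.5 TPM of Havcr1, the kidney injury molecule. The label "TECs" was therefore borne out by its markers. Libraries labelled "PMNs" held neutrophil markers but were mixed, with markers of the tubule and of macrophages and monocytes (1760 to 5988 TPM after sham surgery). In bulk samples, fewer cells of a type and less RNA per cell cannot be told apart.

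Promoter sequences are shown for Pbld1, Miox and Agxt2, because these are members whose windows hold a motif of a factor active in proximal tubule. Each is the RefSeq window of GRCm38.p6 from 250 bases before to 50 bases after an annotated start, on the plus strand and read 5′ to 3′. Pbld1 is at chr10:63061339-63061638, Miox at chr15:89334223-89334522 and Agxt2 at chr15:10358283-10358582. Capitals mark matches to ATTAAC (the reverse complement of the HNF1 half-site GTTAAT), to the TATA box TATAAA or its reverse complement TTTATA, and to the HNF4 motif CAAAGTCCA.
Pbld1: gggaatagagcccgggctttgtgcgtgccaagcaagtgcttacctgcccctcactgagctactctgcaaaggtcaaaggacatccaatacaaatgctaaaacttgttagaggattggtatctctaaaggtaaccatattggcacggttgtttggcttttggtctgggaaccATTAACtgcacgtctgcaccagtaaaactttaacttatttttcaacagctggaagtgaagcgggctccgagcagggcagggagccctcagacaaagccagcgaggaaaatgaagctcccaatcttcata
Miox: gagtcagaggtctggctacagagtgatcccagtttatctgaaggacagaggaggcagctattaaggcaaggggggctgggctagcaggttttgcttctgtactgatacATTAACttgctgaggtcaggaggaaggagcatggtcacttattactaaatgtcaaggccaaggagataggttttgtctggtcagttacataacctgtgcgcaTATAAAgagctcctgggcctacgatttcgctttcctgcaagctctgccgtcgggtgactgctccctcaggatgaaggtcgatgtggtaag
Agxt2: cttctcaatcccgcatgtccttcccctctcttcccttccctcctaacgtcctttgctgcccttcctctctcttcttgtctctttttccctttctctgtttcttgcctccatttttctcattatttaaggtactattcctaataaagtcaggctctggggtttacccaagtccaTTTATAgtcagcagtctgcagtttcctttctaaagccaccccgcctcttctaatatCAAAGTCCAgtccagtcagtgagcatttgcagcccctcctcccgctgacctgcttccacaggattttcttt
The match to ATTAAC lay 79 bases before the start in Pbld1 and 142 bases before it in Miox. The TATA match lay 40 bases before the start in Miox and 77 bases before it, on the other strand, in Agxt2, whose HNF4 match began 21 bases before the start. Searched on both strands, GTTAAT was present in 7.1% of 32851 promoter windows of the same length, TATAAA in 13.6% and CAAAGTCCA in 0.475%. Over the 15 windows of the 10 members, GTTAAT matched 2 and TATAAA matched 4, those of Hgd, Miox and Agxt2. These matches are descriptions of the letters in the window and say nothing on binding.

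In TECs after sham surgery the members covered a wide range of levels. Miox (myo-inositol oxygenase, which opens the inositol ring to give glucuronate) had the highest median, 1344 TPM over 6 libraries with a range of 900 to 1670. Ass1 (argininosuccinate synthase, which joins citrulline and aspartate on the way to arginine) followed with a median of 1152 TPM and a range of 660 to 2073. Gatm (glycine amidinotransferase, the first enzyme of creatine synthesis) came next with a median of 817 TPM and a range of 70.1 to 1005. The ranges of these 3 genes overlapped, so their order was not separated by the spread of the libraries.

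Hgd (homogentisate dioxygenase) and Fah (fumarylacetoacetase), which act in sequence late in tyrosine breakdown, had medians of 173 and 162 TPM, also with overlapping ranges of 94.5 to 225 and 112 to 290. Pbld1, which encodes a protein with a phenazine biosynthesis-like domain, ranged from 46.1 to 111 TPM with a median of 70.4. Dao (D-amino acid oxidase, a peroxisomal enzyme) ranged from 16.9 to 54.3 TPM with a median of 34.8. Agxt2 (the mitochondrial alanine-glyoxylate aminotransferase) spanned 3.16 to 50.6 TPM with a median of 26.4. The low ends of Gatm and Agxt2 both came from sham control 1. Hpd (hydroxyphenylpyruvate dioxygenase, the step before Hgd) had a median of 3.48 TPM and was at 0 in 1 library, and Agmat (agmatinase, which hydrolyses agmatine) had a median of 0.15 TPM. The 10 genes thus ran from among the abundant transcripts of the tubule to ones barely detected at this depth.

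**Figure D1:**
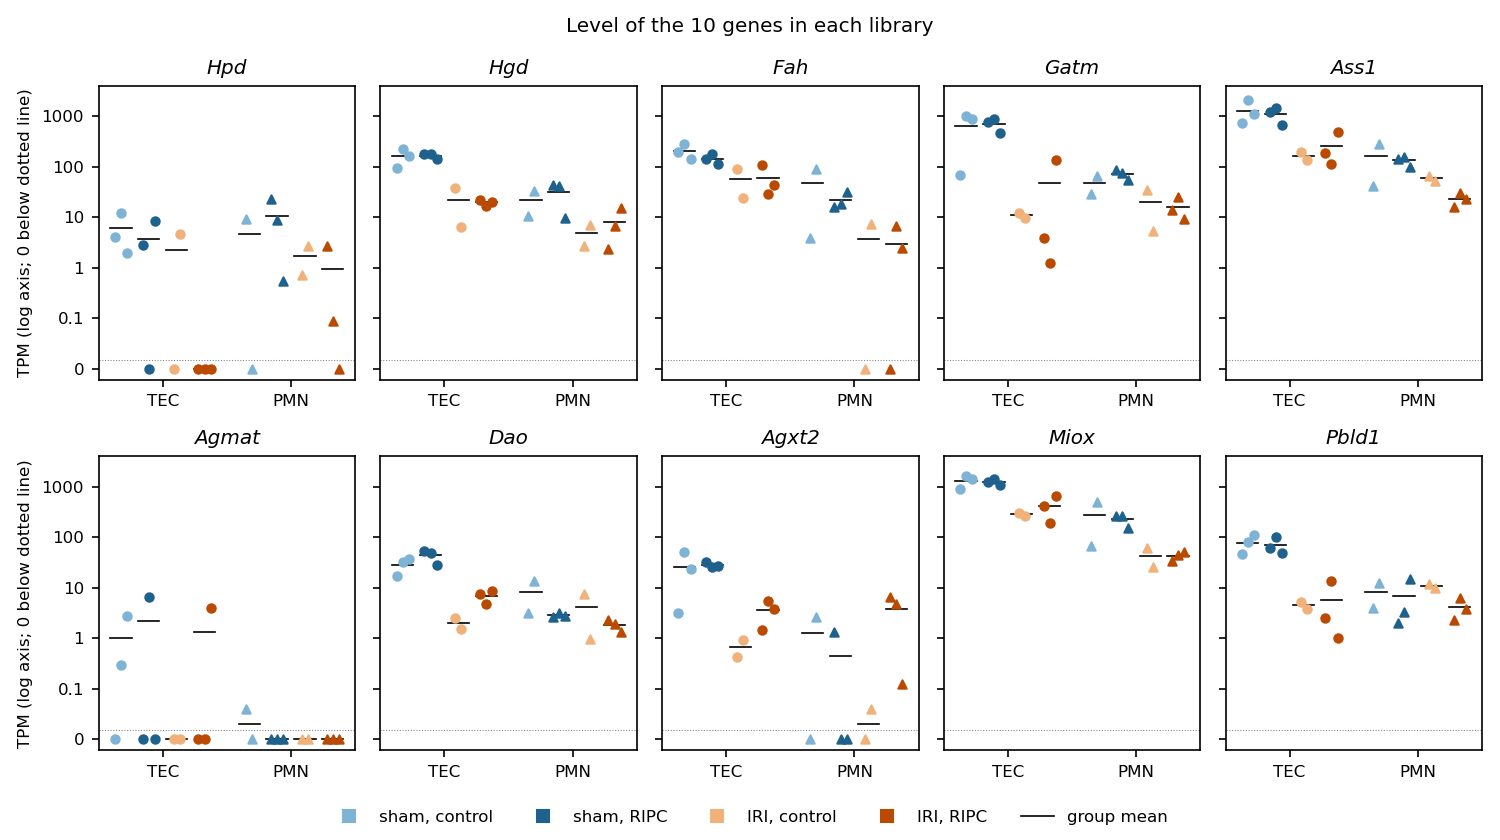
Level of each of the 10 members in TPM on a log axis, with 1 point for each of the 21 libraries (circles for TECs, triangles for PMNs, colours for the 4 treatments), short lines at the group means and libraries at 0 drawn below the dotted line. Pbld1, Dao, Hgd, Fah and Miox show TEC points after IRI below those after sham surgery, and for Hpd and Agmat many points lie at 0.

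The question of the first comparison is how the members differ between TECs after IRI and after sham surgery. Here levels are given as CPM (counts scaled to a fixed library total by TMM), which are comparable between libraries of a cell type but not between genes. Averaged over control and RIPC, 7 of the 10 members had an adjusted p under 0.05 in edgeR's quasi-likelihood test, all of them lower after IRI: Pbld1, Dao, Hgd, Fah, Ass1, Miox and Agxt2. In this comparison 1.4% of the 25917 genes tested were called, 297 lower and 66 higher, and since the members were chosen with it known, nothing is read from the count. The members' median log2 fold change was -3.66 and that of all genes was 0.15. Hpd was at 0 in all libraries of IRI with RIPC and Agmat in both of IRI control, so their fitted values rest on the prior count, and with these arms at their bounds the members' median was -3.10.

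Pbld1 gave the smallest adjusted p among the members. Its level was 244, 371 and 450 CPM in the sham control libraries and 281, 505 and 233 CPM in sham with RIPC. After IRI it was 17.2 and 26.03 CPM without RIPC and 12.2, 19.2 and 7.41 CPM with RIPC. All 5 IRI libraries were below all 6 sham libraries, by 20.7-fold in the fit (log2 fold change -4.37 ± 0.47 SE, adjusted p = 0.00184). Its call was kept without each library in turn and under every other setting tried.

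Pbld1 shares part of its sequence with its paralog Pbld2 and with other genes. Of the 3972 stretches of 50 bases, the read length, in Pbld1 transcripts, 689 (17.35%) also occurred in at least 1 of 258 other genes. Among them 290 (7.3%) occurred in Pbld2 and 286 (7.2%) in Gm48072, annotated on the opposite strand, and whether the counting used strand is not given in the sources used here. Summed over Pbld1 and Pbld2, the level was 264 to 572 CPM after sham surgery and 8.55 to 36.0 CPM after IRI, again without overlap. Transcript Pbld1-202 held 89.9 to 98.3% of the Pbld1 reads in TEC sham libraries. After IRI that share ran from 0 to 98.7% with a median of 54.7%, at read numbers that were much smaller.

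Among the tyrosine enzymes, Hgd measured 372, 735 and 497 CPM in sham control and 561, 608 and 431 CPM in sham with RIPC. After IRI it was 112 and 7.34 CPM without RIPC and 42.4, 45.1 and 79.7 CPM with RIPC. The groups did not overlap, and the 2 IRI control libraries differed more from each other than those with RIPC did. Hgd fell 9.24-fold (log2 fold change -3.21 ± 0.59 SE, adjusted p = 0.0174).

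Fah measured 705, 756 and 386 CPM in sham control and 408, 466 and 309 CPM in sham with RIPC. It was 120 and 91.4 CPM in IRI control and 90.8, 77.6 and 172 CPM in IRI with RIPC. These groups too did not overlap, and Fah, the last enzyme of the branch, fell less than Hgd in the fit, by 4.49-fold (log2 fold change -2.17 ± 0.37 SE, adjusted p = 0.0124). With the transcript length as an offset its log2 fold change was -1.58 and the adjusted p was 0.117. The difference between Hgd and Fah was not tested.

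Hpd was the scarce member of the branch. It measured 12.0, 27.7 and 4.30 CPM in sham control, 6.68, 0 and 20.1 CPM in sham with RIPC, 0 and 15.0 CPM in IRI control and 0 in all 3 libraries of IRI with RIPC. Within the RIPC arm the group mean was at least 67.6-fold lower after IRI, taking 3 reads for each library as the floor. As 1 of the 3 libraries of sham with RIPC was also at 0, the groups overlapped. In this arm edgeR gave an adjusted p of 0.381 for Hpd. Over both arms its adjusted p was 0.247, and 1 IRI control library reached the levels seen after sham surgery.

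Gatm and Ass1 lie on the path from citrulline through arginine to creatine. Gatm measured 322, 4829 and 3789 CPM in sham control and 3495, 4338 and 1989 CPM in sham with RIPC, so 5 of the 6 sham libraries were near one another and sham control 1 was far below. After IRI it was 62.5 and 36.8 CPM without RIPC and 15.8, 5.37 and 827 CPM with RIPC, the last value being from IRI with RIPC 3. The median TPM after IRI was 1.18% of that after sham surgery, the smallest share among the members with a median above 0 in both. The fitted log2 fold change was -4.72 ± 1.16 SE with an adjusted p of 0.0643, which did not pass. Gatm was called in 9 other fits and not called in 10. The 9 included the fits without sham control 1 and without IRI with RIPC 3, the libraries that made the groups overlap.

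Ass1 measured 2885, 6559 and 3278 CPM in sham control and 3686, 4873 and 1932 CPM in sham with RIPC. It was 662 and 548 CPM in IRI control and 513, 316 and 1986 CPM in IRI with RIPC. IRI with RIPC 3 thus lay just above the lowest sham library. Ass1 fell 5.11-fold (log2 fold change -2.35 ± 0.48 SE, adjusted p = 0.0274). Of its 2359 stretches of 50 bases, 911 (38.62%) also occur in the pseudogene Gm5424, which had at most 0.67 CPM in TECs, so reads that could belong to either were assigned almost wholly to Ass1. Agmat reached 15.7 CPM in 1 sham library and 12.8 CPM in IRI with RIPC 3 and was at 0 in 7 of the 11 TEC libraries, and its adjusted p was 0.499.

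Dao and Agxt2 act on D-amino acids and on glyoxylate with alanine. Dao measured 60.6, 98.2 and 89.4 CPM in sham control and 111, 130 and 72.1 CPM in sham with RIPC, against 9.52 and 4.43 CPM in IRI control and 9.97, 10.2 and 38.0 CPM in IRI with RIPC. All IRI libraries were below all sham libraries, and Dao fell 7.99-fold (log2 fold change -2.998 ± 0.58 SE, adjusted p = 0.0212). Agxt2 measured 16.3, 205 and 77.4 CPM in sham control and 127, 105 and 79.9 CPM in sham with RIPC, against 0.81 and 5.05 CPM in IRI control and 5.45, 10.8 and 18.8 CPM in IRI with RIPC. Sham control 1 lay below IRI with RIPC 3, and the other libraries did not overlap. Agxt2 fell 17.4-fold (log2 fold change -4.12 ± 0.79 SE, adjusted p = 0.0206).

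Dao reads were divided among transcripts. Dao-204, annotated as a retained intron, took 0.214 to 13.0% of Dao reads in TEC sham libraries (median 5.03%) and 4.14 to 74.6% after IRI (median 26.98%). These ranges overlap, the shares after IRI rest on few reads, and 44 stretches of 50 bases in Dao-204 also occur in other genes, 422 in all, so part of its reads could come from elsewhere. The difference in share was not tested.

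Miox measured 2211, 3380 and 2557 CPM in sham control and 2394, 2935 and 1896 CPM in sham with RIPC. It was 641 and 683 CPM in IRI control and 715, 342 and 1680 CPM in IRI with RIPC. The groups did not overlap, although IRI with RIPC 3 came close to the lowest sham library. Miox had the smallest fall of the 7 called members, 3.29-fold (log2 fold change -1.72 ± 0.37 SE, adjusted p = 0.0377).

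Counted by overlap alone, all 5 IRI libraries lay below all 6 sham libraries for 5 members, Pbld1, Dao, Hgd, Fah and Miox, as they did for 3.16% of the genes tested. Without sham control 1 this held for 7 members and 4.31% of genes, and without IRI with RIPC 3 for 8 members and 4.36%. The number of members called moved more. It was 2 (Pbld1 and Fah) without sham control 2, 3 without sham with RIPC 1 or without sham with RIPC 2, and 4 without sham control 3. Leaving out any other library gave 6 to 8. With all libraries in, 9 members had an unadjusted p under 0.05, as did 15.0% of genes, and the DESeq2 Wald test called 9 members and 11.6% of the genes it gave an adjusted p.

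**Figure D2:**
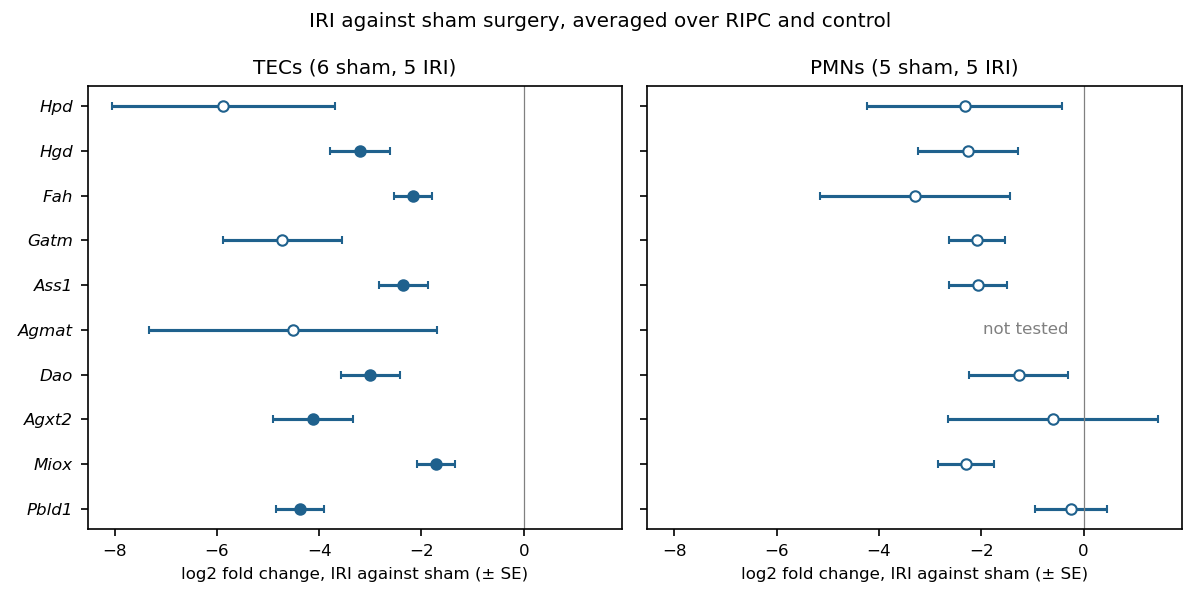
Fitted log2 fold change of each member after IRI against sham surgery, averaged over RIPC and control, with bars of 1 SE, in TECs (left) and PMNs (right), and filled points for an adjusted p under 0.05. In TECs all 10 members lie to the left of 0, with Pbld1 at -4.37 and Miox at -1.72, the fitted values of Hpd and Agmat rest in part on groups at 0, and in PMNs no point is filled.

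Split by preconditioning, the members lay on the same side in both arms. Without RIPC, no member passed the edgeR test between 2 IRI and 3 sham libraries, 8 had an unadjusted p under 0.05 (8.59% of genes), and 0.00386% of genes (1 gene) were called. For 8 members both IRI control libraries lay below all 3 sham control libraries, as for 9.57% of genes. The DESeq2 Wald test called 8 members in this arm and 6.97% of genes. With RIPC, edgeR called Pbld1 alone (log2 fold change -4.71 ± 0.60 SE, adjusted p = 0.0087), 9 members had an unadjusted p under 0.05 (8.85% of genes), and 0.0965% of genes were called. The Wald test called 6 members and 5.56% of genes. Here 7 members had all IRI libraries below all sham libraries, as did 9.9% of genes. The members' median log2 fold change was -3.36 without RIPC and -2.79 with RIPC, against medians of 0.07 and 0.11 over all genes.

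Whether RIPC itself went with a difference in the members was asked in the sham and in the IRI mice. In TECs after sham surgery, edgeR called no member, none had an unadjusted p under 0.05, the DESeq2 Wald test called 0, 6 of 10 fitted values were negative, and the median was -0.03. Of all genes 0.0% were called in that comparison, 4.53% had an unadjusted p under 0.05, and 2.08% were called by the Wald test. After IRI edgeR again called no member, Hpd was the member with an unadjusted p under 0.05 (adjusted p = 0.778), as had 4.35% of genes, and 0.00386% of genes were called. The DESeq2 Wald test called 3.56% of genes and 1 member, also Hpd, whose reads after IRI came from 1 library.

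After IRI, Gatm had the highest fitted value with RIPC among the members with a read in both groups, 2.51 ± 1.53 SE on the log2 scale (adjusted p = 0.778), which came from IRI with RIPC 3 alone. Without that library its value was -2.21, with the replicate number as a block it was -0.13, and with no filter on low counts it was called at 2.51. Agxt2 stood at 1.99 ± 1.06 SE and Dao at 1.47 ± 0.80 SE, both with an adjusted p of 0.778, and for these 2 genes all libraries with RIPC were above both without, as for 7.76% of genes. Pbld1 was on the other side of 0 at -0.74 ± 0.57 SE (adjusted p = 0.818). When the IRI difference with RIPC was set against that without RIPC, no member was called in edgeR or by the DESeq2 Wald test, Hpd had an unadjusted p under 0.05, and 0.0% of genes were called, with 7.21% at an unadjusted p under 0.05 and 2.98% by the Wald test. An effect of RIPC on these genes was therefore not detectable with 2 or 3 libraries in a group, which does not show that there was none.

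The proximal tubule markers were lower after IRI in TECs together with the members. The marker sum ran from 1166 to 2765 TPM after IRI against 3066 to 8285 TPM after sham surgery, and the members' sum from 380 to 1363 TPM against 2062 to 5439 TPM. Expressed against the marker sum, the members amounted to 65.7 to 111% after sham surgery (median 81.2%) and to 13.7 to 67.0% after IRI (median 39.2%). In TPM these ranges overlap at their ends, and the ratio was not taken in CPM. By TPM, IRI with RIPC 2 had the highest marker sum of the IRI libraries, 2765, and the lowest members' sum, 380. By CPM its members' sum was again the lowest, 826, but the highest marker sum was that of IRI with RIPC 3, 7245 against 3573. IRI with RIPC 3 also had the highest members' sum by CPM, 4822. IRI with RIPC 3, the library with the highest Gatm, Ass1 and Miox after IRI, also had the most Slc34a1 (the proximal tubular phosphate transporter) among the IRI libraries, 480 TPM, and the least Havcr1, 15.5 TPM. Other marker lists had higher medians after IRI in TECs. The 7 tubular injury markers summed to 415 to 3280 TPM after sham surgery (3 to 6 of them above 3 reads) and to 1208 to 7378 TPM after IRI (all 7). The 12 neutrophil markers summed to 0.395 to 8.87 TPM (3 to 4 above 3 reads) and 5.49 to 90.5 TPM (6 to 7), the 5 erythrocyte markers to 8.29 to 1053 TPM and 115 to 1336 TPM, the 6 fibroblast markers to 0 to 1.32 TPM and 0.777 to 18.0 TPM, and the 7 endothelial markers to 3.09 to 23.7 TPM and 0.736 to 66.1 TPM. Of these ranges each overlapped between sham surgery and IRI. The part of cell composition in the members' differences was not tested.

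**Figure D3:**
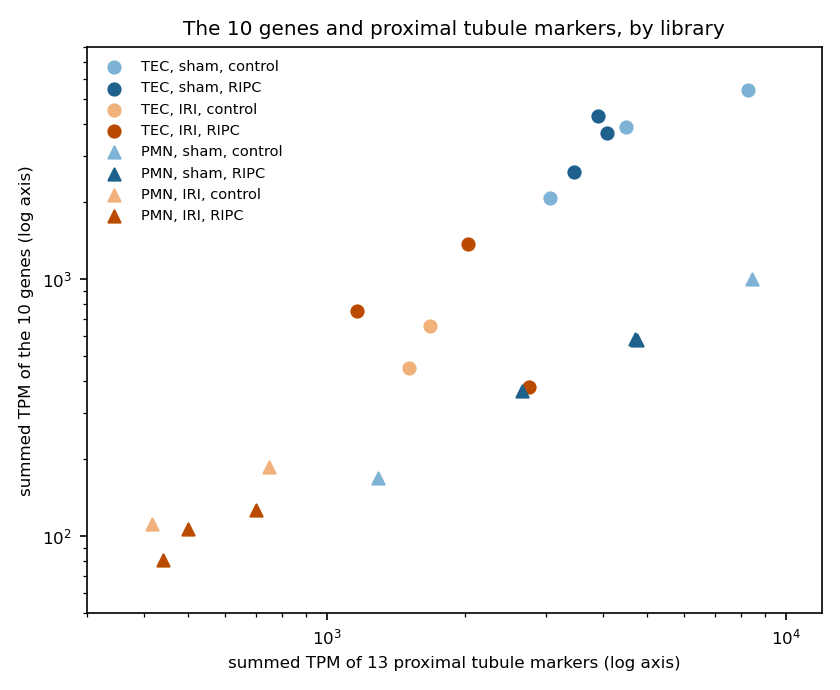
Summed TPM of the 10 members against the summed TPM of 13 proximal tubule markers, both on log axes, with 1 point for each of the 21 libraries (circles for TECs, triangles for PMNs, colours for the 4 treatments). TEC sham points lie at 2062 to 5439 TPM of members and TEC IRI points at 380 to 1363 TPM, while PMN sham points span 1293 to 8456 TPM of markers at 167 to 1003 TPM of members.

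In PMN libraries all 10 genes but Agmat had reads enough to be tested, and Agmat had 2 reads in 1 library and none in the others. Miox had a median of 266 TPM (66.7 to 493) after sham surgery and 43.8 TPM (26.1 to 61.2) after IRI. Ass1 had 144 TPM (40.9 to 290) and 30.1 TPM (16.3 to 66.2), and Gatm 66.3 TPM (29.1 to 87.6) and 13.8 TPM (5.30 to 35.0). The same 3 genes led in TECs after sham surgery.

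Set against TECs, the PMN sham medians were 19.8% for Miox, 12.5% for Ass1, 8.12% for Gatm and 5.66% for Pbld1 of the TEC sham median. Hpd had the higher median TPM in PMNs, 8.66 (0 to 23.2) against 3.48 (0 to 12.3) in TECs, or 249%. These ranges overlapped, and by estimated reads the Hpd median was lower in PMNs, 70 against 222.5. Every TEC library was above every PMN library after sham surgery for 7 members, as for 2.58% of 33899 genes. After IRI this held for Fah, Ass1 and Miox, as for 1.99% of 34778 genes. Over all libraries of both surgeries it held for 0 members and for 0.142% of genes, because TEC levels after IRI reached into the PMN sham range. After IRI the PMN medians of Pbld1 and Gatm were 167% and 143% of the TEC medians, with overlapping ranges. Pbld1 ran from 2.31 to 11.8 TPM in PMNs and 0.998 to 13.7 TPM in TECs, and Gatm from 5.30 to 35.0 TPM and 1.25 to 138 TPM.

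The PMN sham libraries differed widely. Sham control 2 held 789 CPM of Ass1, 654 CPM of Miox and 228 CPM of Fah against 81.6, 90.4 and 8.41 CPM in sham control 1. The same library had 7517 TPM of Kap (a transcript of proximal tubule) and 832 TPM of Umod (uromodulin, of the thick ascending limb), 13.0% mitochondrial reads and the fewest genes with a read, 17526. Its 13 proximal tubule markers summed to 8456 TPM. The members' sum was 11.9 to 13.8% of the proximal tubule marker sum in PMN sham libraries, against 65.7 to 111% in TEC sham libraries. The part of single transcripts such as Kap in these ratios was not tested. The part of tubular RNA in the PMN values was not tested beyond these sums.

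After IRI against sham surgery in PMNs, averaged over RIPC and control, edgeR called none of the 9 members tested. Miox, Gatm, Ass1 and Hgd had an unadjusted p under 0.05, as had 11.8% of genes, and 0.416% of genes were called. All 9 fitted values were negative with a median of -2.08, against -0.01 over all genes. In each arm taken singly 8 of the 9 were negative. Agxt2 had the higher mean CPM after IRI, 6.15 against 1.34. The fitted values of Pbld1, Hpd and Agxt2 turned positive in some fits with 1 library left out. Miox stood at -2.30 ± 0.55 SE (adjusted p = 0.162), Gatm at -2.08 ± 0.55 SE (adjusted p = 0.212) and Ass1 at -2.06 ± 0.57 SE (adjusted p = 0.236). The DESeq2 Wald test called these 3 and 11.5% of genes.

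Miox was the 1 member with all 5 PMN IRI libraries below all 5 sham libraries, as for 2.08% of genes. Without sham control 1 the same held for Gatm, Fah, Ass1 and Miox and for 3.28% of genes. In the same libraries the proximal tubule marker sum was 417 to 750 TPM after IRI against 1293 to 8456 TPM after sham surgery, so the tubular markers and these members were both lower. The 9 macrophage and monocyte markers were lower as well, at 349 to 1054 TPM after IRI (all 9 above 3 reads) against 1760 to 5988 TPM after sham surgery (8 to 9). The part of either cell type in the members' values was not tested. Against the proximal tubule marker sum the members were 17.9 to 26.7% after IRI and 11.9 to 13.8% after sham surgery.

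In PMNs Pbld1 had the fitted value nearest 0 of the 9 members tested. Agxt2 (-0.60 ± 2.05 SE) and Dao (-1.26 ± 0.97 SE) came next, and their groups overlapped too. Pbld1 measured 16.0 and 55.8 CPM in sham control, 9.43, 14.5 and 43.9 CPM in sham with RIPC, 29.5 and 31.5 CPM in IRI control and 9.75, 30.4 and 16.4 CPM in IRI with RIPC, with full overlap. The fitted log2 fold change was -0.25 ± 0.71 SE (adjusted p = 0.976). Relative to Miox in the same library, Pbld1 was 0.765 to 9.99% of the Miox TPM in PMN sham libraries and 6.71 to 37.7% after IRI. In TECs it was 4.31 to 7.81% after sham surgery and 0.152 to 7.11% after IRI. The ratio of Pbld1 to Miox thus had its narrowest range in TEC sham libraries (median 4.99%). Its median was lower in TECs after IRI (1.46%) and in PMNs after sham surgery (2.48%), and higher in PMNs after IRI (14.6%). Each of these ranges overlapped that of the TEC sham libraries.

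Ass1 stood at 59.2 to 124% of Miox in TEC sham, 44.8 to 74.6% in TEC IRI, 54.1 to 67.4% in PMN sham and 43.6 to 197% in PMN IRI libraries. Gatm stood at 7.79 to 62.1%, 0.648 to 21.1%, 13.5 to 43.7% and 17.9 to 58.5% of Miox in the same order. After IRI in TECs the Gatm ratio had a median of 3.67%, and after sham surgery of 60.0%. These ratios were not tested.

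In the PMN arms taken singly, no member passed edgeR in either. Without RIPC 2 members had an unadjusted p under 0.05 (4.45% of genes), the Wald test called 0 (4.52% of genes), 3 had all IRI libraries below all sham libraries (14.4% of genes), and 0.0% of genes were called. With RIPC 3 members had an unadjusted p under 0.05 (10.1% of genes), 5 had no overlap (7.63% of genes), and 0.248% of genes were called by edgeR. There the Wald test called 0 members and 9.95% of genes, and apeglm called 2 (Gatm and Ass1) and 5.78% of genes. Comparing RIPC with control in PMNs, edgeR and the DESeq2 Wald test called no member and none had an unadjusted p under 0.05, after sham surgery (0.004% of genes called), after IRI (0.0%) or in the interaction (0.0%). Over all genes in these 3 comparisons 4.6%, 2.72% and 5.74% had an unadjusted p under 0.05, and the Wald test called 4.77%, 2.36% and 4.01%. After IRI, all libraries with RIPC were below both without for Ass1, as for 10.1% of genes, and above both for Agxt2, as for 6.41%. Agxt2 was at 0 and 0.11 CPM in IRI control and at 22.2, 8.36 and 0.12 CPM in IRI with RIPC, so 1 of the 3 was as low as IRI control.

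The other genes of these pathways were taken as 98 genes in 8 lists, chosen like the members with earlier results known. In TECs after IRI against sham surgery 21 of the 93 tested fell and 0 rose in edgeR (3 higher with an unadjusted p under 0.05 and 2 by the DESeq2 Wald test), 80 had a negative value, and the median log2 fold change was -1.72, against 0.15 over all genes, of which 1.15% were called lower and 0.255% higher. The calls were spread over all 8 lists, with between 1 and 3 in each.

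In tyrosine and phenylalanine catabolism 3 of 7 fell. Qdpr (dihydropteridine reductase, which recycles the cofactor tetrahydrobiopterin) stood at -2.49 ± 0.49 SE (adjusted p = 0.0233). Gstz1 (maleylacetoacetate isomerase, the step between Hgd and Fah) stood at -2.26 ± 0.46 SE (adjusted p = 0.0289). Pcbd1, of the same cofactor cycle as Qdpr, stood at -1.62 ± 0.37 SE (adjusted p = 0.047). Hgd, Gstz1 and Fah, the last 3 steps of the pathway, were therefore each called lower.

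In the list of creatine, arginine and urea cycle 2 of 9 fell. Asl (argininosuccinate lyase, which takes the product of Ass1) stood at -2.56 ± 0.54 SE (adjusted p = 0.0343) and Oat (ornithine aminotransferase) at -1.65 ± 0.35 SE (adjusted p = 0.0323). Arg2, the mitochondrial arginase, had a positive value of 4.47 that did not pass (adjusted p = 0.219).

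Of glycine, serine and glyoxylate genes 3 of 16 fell. Shmt1 (cytosolic serine hydroxymethyltransferase) stood at -5.91 ± 0.87 SE (adjusted p = 0.00647), Amt (the aminomethyltransferase of the glycine cleavage system) at -3.74 ± 0.60 SE (adjusted p = 0.00947) and Grhpr (glyoxylate reductase) at -2.32 ± 0.41 SE (adjusted p = 0.0145). Grhpr and Agxt2 both remove glyoxylate.

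In branched-chain amino acid catabolism all 17 tested genes had a negative value and 3 fell. These were Ivd (isovaleryl-CoA dehydrogenase) at -2.73 ± 0.49 SE, Aldh6a1 (methylmalonate semialdehyde dehydrogenase) at -2.23 ± 0.44 SE and Mccc1 (a subunit of methylcrotonyl-CoA carboxylase) at -2.24 ± 0.50 SE, with adjusted p of 0.0164, 0.0233 and 0.0417. In tryptophan and lysine catabolism 3 of 12 fell. Gcdh (glutaryl-CoA dehydrogenase) stood at -2.80 ± 0.38 SE, Acmsd (the decarboxylase that turns the pathway away from NAD synthesis) at -5.42 ± 1.14 SE and Aldh7a1 (of lysine breakdown) at -1.90 ± 0.43 SE, with adjusted p of 0.00406, 0.034 and 0.0458.

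Of the proline, hydroxyproline, glutamine and histidine genes 3 of 12 fell. Aldh4a1 and Prodh, the enzymes of proline breakdown, stood at -3.46 ± 0.57 SE and -2.89 ± 0.63 SE (adjusted p = 0.0109 and 0.0391). Ftcd, the last step of histidine breakdown, was also called (adjusted p = 0.0131) and was at 0 in IRI control, so no fold is given for it. Among sulfur amino acid genes 1 of 11 fell, Cth (cystathionine gamma-lyase, -3.29 ± 0.75 SE, adjusted p = 0.0468).

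The genes around Miox fell in 3 of 9 cases. Akr1a1, which reduces the glucuronate that Miox makes, stood at -1.43 ± 0.32 SE (adjusted p = 0.0416), Sord (sorbitol dehydrogenase) at -1.80 ± 0.39 SE (adjusted p = 0.0397) and Xylb (xylulokinase, the end of that route) at -3.58 ± 0.58 SE (adjusted p = 0.0101). Slc5a3, the sodium-coupled inositol transporter, had a positive value of 1.56 (adjusted p = 0.505), and Impa2, an inositol monophosphatase, one of 5.23 (adjusted p = 0.301), neither of which passed.

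**Figure D4:**
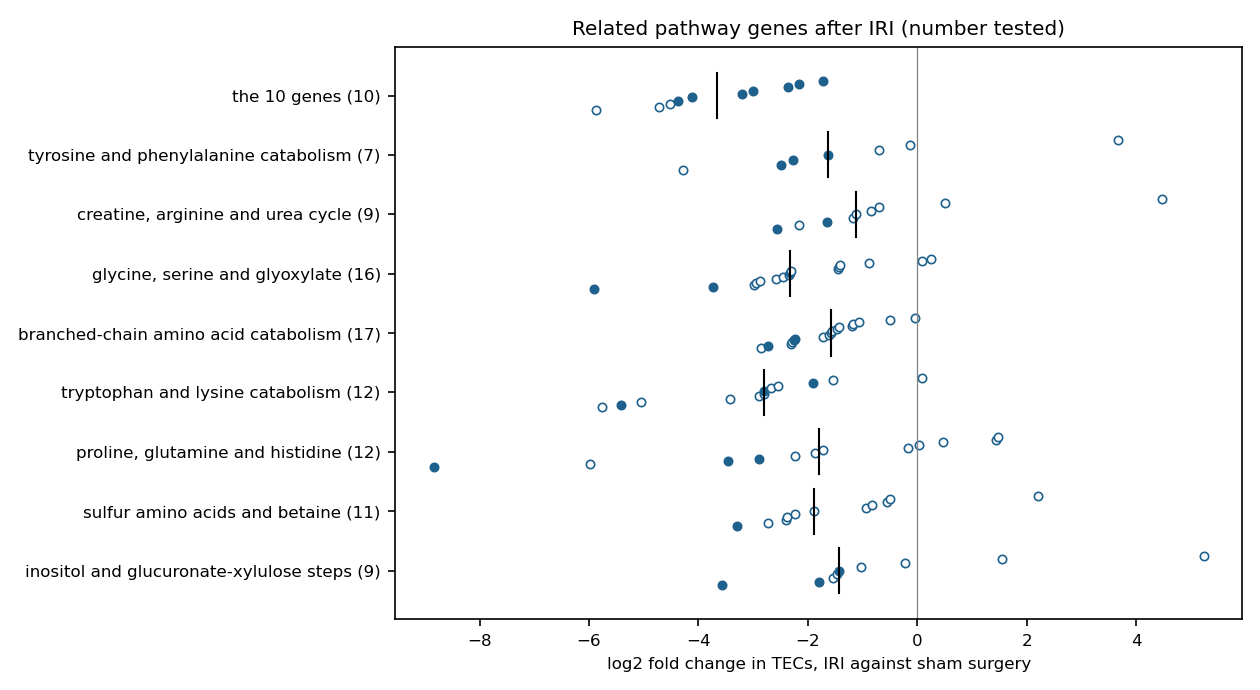
Fitted log2 fold change in TECs, IRI against sham surgery, of the 10 members (top row) and the 93 tested pathway genes in 8 lists, with 1 point for each gene, filled points for an adjusted p under 0.05 and vertical lines at the medians. The 21 called pathway genes all lie below 0, 80 of the 93 have a negative value, and the fitted values of genes with a group at 0, such as Ftcd at the far left, rest in part on the prior count.

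In the remaining comparisons edgeR called 0 pathway genes in either cell type. In TECs, IRI against sham surgery gave an unadjusted p under 0.05 for 43 of 93 pathway genes without RIPC (8.59% of all genes). With RIPC it was 41 (8.85%). Counted separately, the DESeq2 Wald test called 26 and 17 (6.97% and 5.56% of all genes). For RIPC against control in TECs, 2 had an unadjusted p under 0.05 after sham surgery and 8 after IRI (4.53% and 4.35% of all genes). There the Wald test called 1 and 4 (2.08% and 3.56% of all genes). In PMNs 18 of 89 genes had an unadjusted p under 0.05 between IRI and sham surgery over both arms (11.8% of all genes). The Wald test called 18 there (11.5% of all genes). Among the 16 genes with the highest TEC sham levels in their lists, 2 from each, 6 had a negative value for RIPC against control after IRI in TECs, with a median of 0.25. After sham surgery the values ran from -0.87 to 0.17 with 13 negative. In PMNs after IRI against sham surgery 14 of the 16 were negative, the highest value was that of Oat at 1.40, and Qdpr had the smallest adjusted p (-3.18 ± 0.79 SE, adjusted p = 0.177). Over all the lists 64 of the 89 genes tested were negative in that comparison, with 4 of 8 in the creatine, arginine and urea cycle list and 6 of 11 in the proline list.

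The members varied together over the 11 TEC libraries. Among the 8 members other than Hpd and Agmat, the 28 pairwise Pearson correlations of log2(CPM + 1) ran from 0.776 to 0.986 with a median of 0.858. The genes closest to the members' mean among 8999 genes were Pdzk1 (a scaffold protein of the brush border, r = 0.989), Cideb (r = 0.989) and Aspa (aspartoacylase, r = 0.988). Closest to Pbld1 were AC132455.2 (r = 0.981), Osr2 (r = 0.978) and Hes6 (r = 0.976). The points share the contrast of surgery and the libraries with more or less tubular RNA, so these values are a description over 11 libraries.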

How the data were processed

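Per the labels, RNA from sorted cells was primed at poly(A) and sequenced as single-end reads of 50 bases. The authors trimmed reads with Trim Galore 0.6.4 and ran Salmon 1.0.0 against mouse transcripts. The deposited tables give, per transcript, an estimated count, TPM and an effective length. Each library has 2 tables, whose difference is not given in the sources used here. Estimated counts were summed over both tables and over the transcripts of a gene (GENCODE vM21) and rounded, and deposited TPM values were averaged over both tables and summed over transcripts. Of 140748 transcripts 884 had no match in that annotation (0.139 to 0.255% of reads). Autosomal genes were filtered with filterByExpr, scaled by TMM and tested with edgeR 4.0.16 (quasi-likelihood F test, R 4.3.3, the 4 groups of a cell type in 1 fit, Benjamini-Hochberg over all genes tested, threshold 0.05). This left 25917 genes in TECs and 25002 in PMNs. The SE is the log2 fold change divided by the root of F. TECs and PMNs were compared by TPM with no test. The tests were tested on simulated data. DESeq2 1.42.0 (with apeglm 1.24.0), other filters and scalings, either table alone, transcript length offsets and left-out libraries were tried. Counting error is smallest in the deepest libraries. Members and gene lists were chosen with earlier results of these data known. All members were named, with up to 4 called genes per pathway list by adjusted p, or the 2 with the highest TEC sham CPM where none was called, and the 3 genes with the most similar pattern. Arg2, Slc5a3 and Impa2 were named after their values were seen. Some genes of the pathway lists are counted but not reported here by name.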

Additional observations from a re-analysis of the deposited data

How the results depend on the processing

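The number of members called depended on the processing in 6 comparisons. In TECs, IRI against sham surgery without RIPC (0 with all libraries and the main settings) gave 7 with no filter on low counts (465 genes over all), 8 with the DESeq2 Wald test (1317), 8 with apeglm s-values under 0.01 (1132) and 1 with the replicate number as a block (27). With RIPC (1) it gave 7 with no filter (471 genes), 6 with the Wald test (1013), 5 with apeglm (1147), 0 with the transcript length offset (28) and 0 with the compared groups only (0). RIPC against control after IRI gave 1 with no filter (Gatm, 71 genes) and 1 with the Wald test (Hpd, 699), and the interaction gave 1 with no filter (Gatm, 84). In PMNs, IRI against sham surgery (0) gave 3 with no filter, 3 with the Wald test and 3 with apeglm, and with RIPC 1 with no filter (738 genes) and 2 with apeglm (1444). The averaged TEC comparison (7) kept its count within 1.5-fold under these settings. Its calls over all genes, 363, became 1289 with no filter, 2234 with the Wald test, 2505 with apeglm and 92 to 714 with 1 library left out, and the 104 in PMNs became 971, 1955 and 2078. The cause was not tested. Leaving out 1 library gave 2 to 8 members in the averaged TEC comparison, 0 to 1 without RIPC, 1 to 4 with RIPC and 0 to 2 in PMNs. In these fits a group left with 1 library is assumed to vary like the others. Among the IRI against sham log2 fold changes over both arms in either cell type and in each TEC arm, those that changed sign did so with a library left out, and ranges here are over such fits. In TECs these were Agmat over both arms (-9.37 to 0.49, positive without sham with RIPC 2), Hpd without RIPC (-11.61 to 0.026, positive without IRI control 1) and Agmat with RIPC (-10.01 to 9.72, the highest without sham with RIPC 2, and 0.29 without IRI with RIPC 1 and 0.29 without IRI with RIPC 2). In PMNs they were Pbld1 (-0.55 to 0.39, the highest without sham control 2, and 0.21 without sham with RIPC 3), Hpd (-4.19 to 1.71, positive without sham control 1) and Agxt2 (-2.33 to 3.88, the highest without sham control 2, and 2.81 without sham with RIPC 1). For RIPC against control in TECs after IRI, signs also changed for Gatm (-0.13 with the replicate block, -2.21 to 3.09 with a library left out), Hgd (0.053 with the block, -0.99 to 2.92), Fah (-0.12 with the length offset, -0.30 to 0.31), Ass1 (-0.52 to 1.05) and Miox (-0.31 to 0.86), the low ends of Gatm, Fah, Ass1 and Miox being without IRI with RIPC 3, where Agmat came to 0. In the other 7 comparisons, whose member values are not given singly, signs changed in 24 of 565 values under other settings and in 65 of 440 with a library left out. DESeq2 size factors moved the median of all genes by 0.13 in the averaged TEC comparison and turned no member there. Within a cell type, samples with the same replicate number did not deviate together (r from -0.0895 to 0.110 over 15 TEC pairs, and from -0.0209 to 0.0239 over 13 PMN pairs). TECs were not checked against PMNs, and in groups of 2 libraries the deviations mirror each other, so these values cannot exclude a pairing. With the replicate block the averaged TEC comparison called 8 members. The overlap counts without single libraries were chosen after seeing the data. Libraries with 0 reads limit what can be said of Hpd and Agmat in TECs and of Hpd, Agmat, Agxt2 and Fah in PMNs.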
